A study of Mus musculus with 6 samples.

Results

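The Sprouty and Spred genes encode feedback inhibitors of receptor tyrosine kinase signalling, and 6 of them were examined here: Spry1, Spry2, Spry4, Spred1, Spred2 and Spred3. They were found by their symbols in the table that pairs the array's probe sets with genes, each as the single symbol of its probe set. These 6 of 19938 named genes had 7 of the 28853 probe sets, since Spred2 has 2 and each of the others has 1. The rule that finds them uses symbols only, but the genes were chosen with earlier results of these data known.

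The cells were MS5, a mouse bone marrow stromal line that supports blood cells in co-culture, grown in alpha-MEM with serum. They received either 1 μM of PD184352, an inhibitor of the kinase MEK (MEKi), or the DMSO diluent for 7 days. The work was done as 3 independent experiments (series 1, 2 and 3), each with 1 diluent and 1 MEKi culture, so that 6 Affymetrix mouse Gene 1.0 ST arrays were hybridised, 3 per condition. All values below are log2 intensities after the authors' robust multichip normalization (RMA), and a difference of −1 on this scale would mean that the intensity was halved. The cultures are of 1 cell line, so that the spread between experiments is not that between animals.

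A growth factor that binds its receptor tyrosine kinase activates RAS, which passes the signal through RAF and MEK to the kinase ERK. ERK in turn switches on genes whose products slow the same cascade, and the Sprouty and Spred families belong to these products. Sprouty proteins bind adaptors and ubiquitin ligases such as GRB2 and CBL, while Spred proteins bring neurofibromin, the RAS-inactivating product of Nf1, to the membrane. Both families carry a cysteine-rich Sprouty domain at their carboxyl end, and Spred proteins also have an EVH1 domain. They are known as brakes on fibroblast growth factor signalling in mesenchymal cells.

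With MEKi, the log2 level was lower in all 3 experiments for 5 of the 7 probe sets, those of Spred1, Spred2 (both), Spred3 and Spry2. None of the 7 was higher in all 3. Over the whole array 7.98% of probe sets were lower and 23.8% higher in all 3 experiments. The fitted difference was below 0 for 6 of the 7, and for 36% of all probe sets. The largest of these differences was that of Spred2, at 0.730 of its diluent intensity for 1 probe set and 0.742 for the other. Spry4 was lower in 2 experiments and higher in 1, and Spry1 was higher in 2 and lower in 1. None of the 7 probe sets passed an adjusted p of 0.05 in limma, which fits a linear model per probe set and shares the variance between them, with a term for the experiment and with the Benjamini-Hochberg correction taken over the whole array. Of all probe sets, 0.159% passed, 0.0555% lower and 0.104% higher. At an unadjusted p of at most 0.05, 5 of the 7 were lower and 0 higher, against 2.31% of all probe sets lower, 7.58% higher and 9.89% in either direction. The diluent and MEKi cultures did not overlap for 4 of the 7, both Spred2 probe sets, Spred1 and Spry2, all lower with MEKi, as was so for 2.17% of all probe sets in this direction and 5.69% in the other. None reached an unadjusted p of at most 0.05 with a change of 1.5-fold, as 0.537% of all probe sets did. All these shares are for the values as deposited, where the median log2 fold change of all probe sets was 0.0365. It was 0.0044 after array centring and 0.0007 after quantile normalization, and 5 of the 7 were lower at the unadjusted p in both. Unadjusted shares by direction were not taken after these steps.

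**Figure D1:**
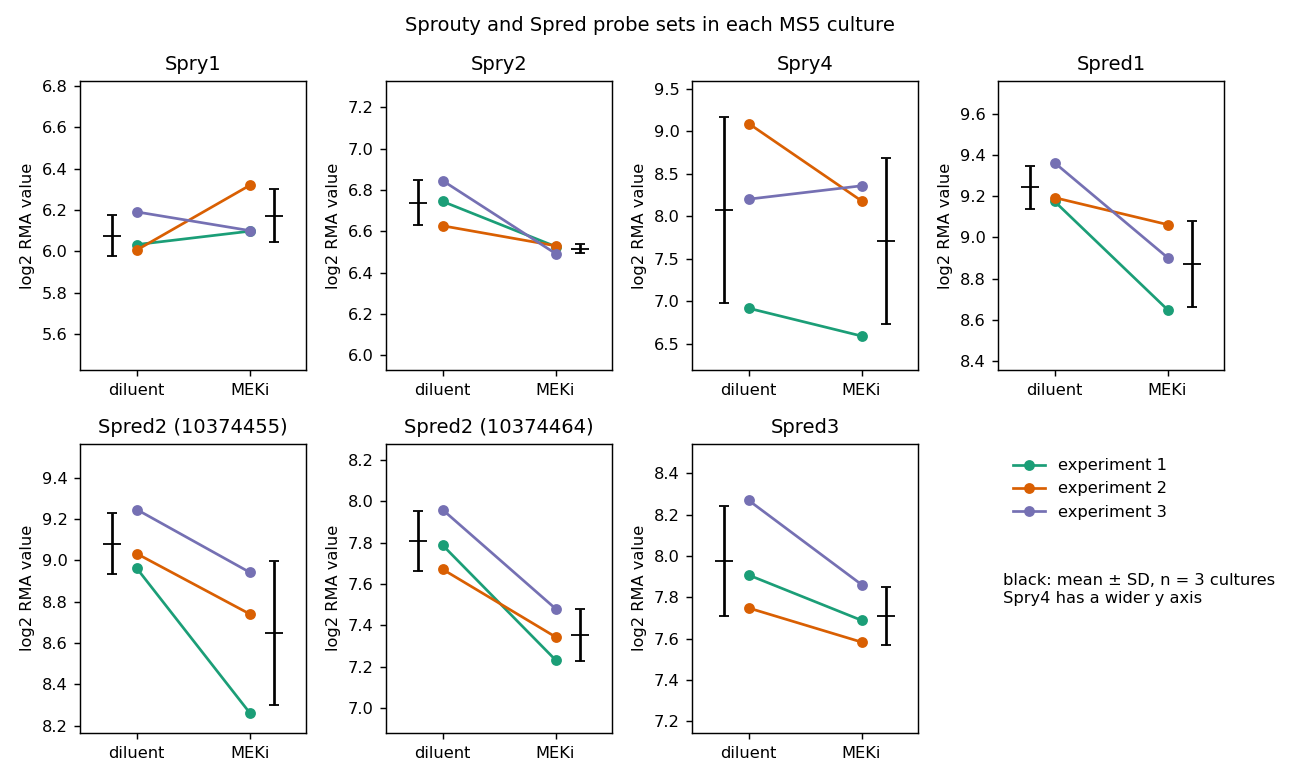
Log2 RMA values (y axis) of the 7 Sprouty and Spred probe sets by treatment (x axis), each point being 1 array; lines link the diluent and MEKi points of 1 experiment, and black bars are the mean ± SD of 3 cultures. The lines of Spred1, Spred2, Spred3 and Spry2 run downwards in every experiment, while those of Spry4 start between 6.92 and 9.09 and do not all run the same way.

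Spred2 encodes a Spred protein that is widely expressed. Its first probe set (10374455) read 8.96, 9.03 and 9.25 in the diluent cultures of experiments 1, 2 and 3, and 8.26, 8.74 and 8.94 in the MEKi cultures. The highest MEKi culture lay just under the lowest diluent culture, and experiment 1 had the lowest MEKi value. The differences were −0.70, −0.29 and −0.30, giving a fitted log2 fold change of −0.43 (standard error 0.101, 95% confidence interval −0.67 to −0.19, adjusted p = 0.24 from limma). The second probe set (10374464) read 7.79, 7.67 and 7.96 with diluent and 7.23, 7.34 and 7.48 with MEKi. Its groups were further apart, and its differences of −0.56, −0.33 and −0.48 varied less between experiments. The log2 fold change was −0.45 (standard error 0.080, interval −0.64 to −0.27, adjusted p = 0.156 from limma), the lowest adjusted p among the 7. Only 0.44% of all probe sets had an unadjusted p as low as this one or lower. In both probe sets the difference was largest in experiment 1.

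Spred1 encodes the Spred protein whose loss in people causes Legius syndrome, a condition that resembles a mild neurofibromatosis. It read 9.17, 9.19 and 9.36 with diluent and 8.65, 9.06 and 8.90 with MEKi. The diluent values were close together, and all MEKi values lay under them. The differences were −0.52, −0.13 and −0.46, smallest in experiment 2, and the fitted log2 fold change was −0.37 (standard error 0.096, interval −0.60 to −0.14, adjusted p = 0.284 from limma). Its intensity with MEKi was 0.773 of that with diluent.

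Spred3, the remaining member of the Spred family, read 7.91, 7.75 and 8.27 with diluent and 7.69, 7.58 and 7.86 with MEKi. Here the groups overlapped, because the MEKi culture of experiment 3 was above the diluent culture of experiment 2. Within each experiment MEKi was still the lower culture, by −0.22, −0.16 and −0.41. The log2 fold change was −0.26 (standard error 0.081, interval −0.46 to −0.072, adjusted p = 0.367 from limma).

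The promoters of these 3 Spred genes are shown because their values lay lower together, and that of Spry1 because it did not share their direction. The promoter of Spry2, which also lay lower in all 3 experiments, is not shown. The sequences are those of RefSeq on GRCm38.p6 and run from 250 bases before to 50 bases after the annotated start, along the strand of the gene; 5 of the 6 genes were matched to this table, and Spry4 was not. Capitals mark the GC box GGGCGG on either strand, a motif bound by SP factors. The promoter of Spred2 lies at chr11:19924192-19924491 (plus strand), that of Spred1 at chr2:117120821-117121120 (plus strand), that of Spred3 at chr7:29168598-29168897 (minus strand) and that of Spry1 at chr3:37639697-37639996 (plus strand).
Spred2: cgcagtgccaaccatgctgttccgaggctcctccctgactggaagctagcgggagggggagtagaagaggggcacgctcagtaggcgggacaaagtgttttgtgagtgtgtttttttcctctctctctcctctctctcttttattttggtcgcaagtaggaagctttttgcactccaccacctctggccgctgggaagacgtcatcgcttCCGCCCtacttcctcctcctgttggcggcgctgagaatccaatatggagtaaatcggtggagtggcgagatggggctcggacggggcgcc
Spred1: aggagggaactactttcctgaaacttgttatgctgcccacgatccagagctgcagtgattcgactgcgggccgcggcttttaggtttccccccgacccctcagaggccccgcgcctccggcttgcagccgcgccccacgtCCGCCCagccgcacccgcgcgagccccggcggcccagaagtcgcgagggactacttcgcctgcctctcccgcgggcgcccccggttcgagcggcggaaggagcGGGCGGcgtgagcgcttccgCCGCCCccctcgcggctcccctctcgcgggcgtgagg
Spred3: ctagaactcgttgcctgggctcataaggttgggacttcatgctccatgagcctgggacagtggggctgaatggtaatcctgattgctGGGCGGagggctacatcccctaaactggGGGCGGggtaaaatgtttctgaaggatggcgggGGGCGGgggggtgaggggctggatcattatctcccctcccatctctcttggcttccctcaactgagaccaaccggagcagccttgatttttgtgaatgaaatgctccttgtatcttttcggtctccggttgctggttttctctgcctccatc
Spry1: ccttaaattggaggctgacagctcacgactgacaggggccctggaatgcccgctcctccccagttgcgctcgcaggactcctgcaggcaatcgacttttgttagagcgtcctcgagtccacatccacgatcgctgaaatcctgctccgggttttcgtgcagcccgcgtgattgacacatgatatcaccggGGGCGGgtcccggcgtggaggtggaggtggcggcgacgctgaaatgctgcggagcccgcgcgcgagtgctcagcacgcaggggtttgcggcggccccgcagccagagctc

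GC boxes were found once in the Spred2 promoter, 3 times in that of Spred1, 3 times in that of Spred3 and once in that of Spry1. The Spry2 promoter held none. Of 32851 promoters of this length, 35.7% held the GC box. The other motifs searched on both strands were the ETS motif CCGGAAG (in 8.86% of all promoters), the AP-1 motif TGANTCA (7.81%), the cyclic AMP response element TGACGTCA (1.79%) and the CArG box of serum response factor (1.63%). None of these other motifs occurred in the promoters of the 5 matched genes, which says only that these letters are not in these windows. GC content was 57.0% for Spred2, 72.3% for Spred1, 55.0% for Spred3, 64.3% for Spry1 and 62.7% for Spry2, with a median of 52.7% over all promoters.

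Spry2 encodes the Sprouty protein best known for binding CBL and GRB2. It read 6.74, 6.63 and 6.84 in the diluent cultures of experiments 1, 2 and 3, and 6.53, 6.53 and 6.49 in the MEKi cultures. The MEKi values lay close together, with a mean of 6.52 ± 0.021 (SD, n = 3), under a diluent mean of 6.74 ± 0.11 (SD, n = 3). The differences were −0.22, −0.097 and −0.35, giving a fitted log2 fold change of −0.22 (standard error 0.082, interval −0.41 to −0.031, adjusted p = 0.437 from limma).

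Spry4 encodes a Sprouty protein that is induced by growth factors in many cell types. It differed more between experiments than between treatments. With diluent it read 6.92, 9.09 and 8.20 in experiments 1, 2 and 3, and with MEKi 6.59, 8.18 and 8.36. Experiment 1 was low in both conditions, and the diluent cultures spanned 2.17. Their SD was 1.09, and 0.693% of all probe sets had a larger SD among the diluent cultures. The differences were −0.33, −0.91 and 0.16, so that the sign was not the same in all experiments. The log2 fold change was −0.36 (standard error 0.178, interval −0.78 to 0.059, adjusted p = 0.575 from limma), and it was −0.085 without experiment 2 and −0.62 without experiment 3. Without the experiment as a block, the standard error was 0.649.

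Spry1 encodes the Sprouty protein that restrains growth factor signalling in the developing kidney. It read 6.03, 6.01 and 6.19 with diluent and 6.10, 6.32 and 6.10 with MEKi. The groups overlapped, with the highest value in the MEKi culture of experiment 2. The differences were 0.065, 0.31 and −0.090, and the fitted log2 fold change was 0.096 (standard error 0.095, interval −0.13 to 0.32, adjusted p = 0.791 from limma). Without experiment 2 the value was −0.013. Its mean over the arrays was under the median of all probe sets, unlike that of the other 6 probe sets. Spry3, the Sprouty gene outside the 6, also had a mean under this median. It read 6.08, 6.19 and 6.35 with diluent and 6.45, 6.28 and 6.45 with MEKi (log2 fold change 0.18, standard error 0.087, adjusted p = 0.55 from limma).

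**Figure D2:**
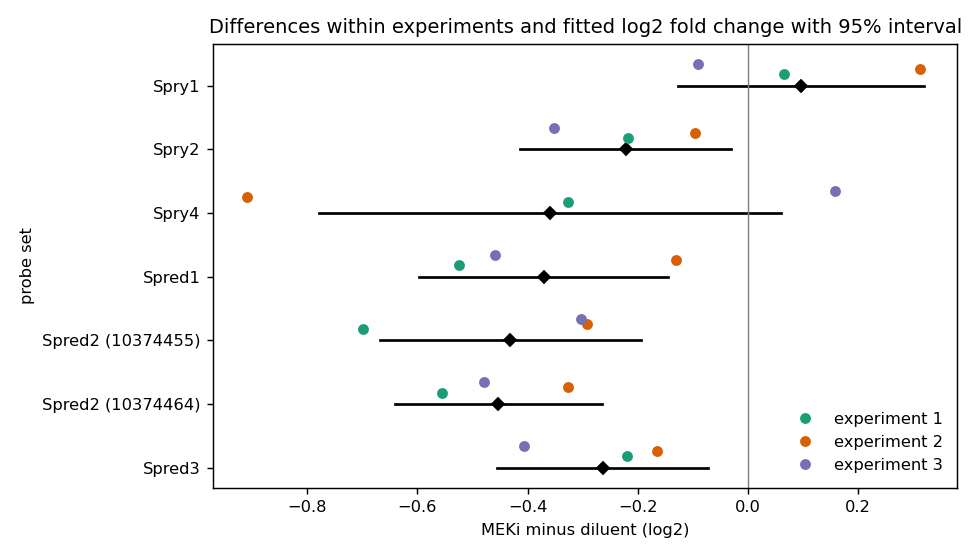
Log2 difference of MEKi from diluent (x axis) for each Sprouty and Spred probe set (y axis); coloured points are the 3 experiments, black diamonds the log2 fold change and black lines its 95% confidence interval from limma. The intervals of Spred1, Spred2, Spred3 and Spry2 lie under 0 before adjustment for the number of probe sets, and those of Spry4 and Spry1 include 0.

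In order of the log2 fold change, the 7 probe sets ran from Spred2 (−0.45 and −0.43) through Spred1 (−0.37), Spry4 (−0.36), Spred3 (−0.26) and Spry2 (−0.22) to Spry1 (0.096). The intervals of all neighbours in this order overlapped, and no test was made of one gene against another. The median of the 7 was −0.36, and −0.33, −0.16 and −0.35 in experiments 1, 2 and 3, beside medians of −0.003, 0.10 and 0.014 over all probe sets.

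Across the 6 arrays, the probe sets varied together to different degrees. Spred2 and Spred1 had a Pearson correlation of 0.906 for the first Spred2 probe set and 0.889 for the second, and the Spred2 probe sets correlated by 0.884 with each other. Spry2 correlated by 0.917 with the second Spred2 probe set, 0.824 with Spred3 and 0.801 with Spred1. Spry4 stood apart from Spry2 (−0.011) and Spred3 (0.079). It correlated by 0.633 with the first Spred2 probe set, 0.277 with the second and 0.507 with Spred1. Spry1 correlated by −0.24 to 0.089 with the 6 other probe sets. These values describe 6 arrays that share their experiments and their normalization.

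The genes most like each member were sought by Pearson correlation over the same 6 arrays among 11854 brighter probe sets that name 1 gene. For the first Spred2 probe set they were Lhfpl2 (0.999), Apln (0.994), which encodes the peptide ligand apelin, and Tex2 (0.987), and for the second Aig1 (0.990), Ifi207 (0.988) and Prkcz (0.984), an atypical protein kinase C. Rpl23 (0.994), a ribosomal protein gene, Colec12 (0.989), a scavenger receptor gene, and Zbp1 (0.988), a nucleic acid sensor gene, were nearest to Spred1. Bend6 (0.992), Atp6v0d2 (0.989) and Adat2 (0.982) were nearest to Spred3. Spry2 was followed by Irf1 (0.975), an interferon-regulated transcription factor gene, Prkcz (0.965) and Tbc1d10b (0.960), and Spry1 by Mbl2 (0.988), Accs (0.987) and Ghsr (0.984). These are the highest of 11854 candidates over only 6 arrays, and Spry1 reached such values with a log2 fold change of 0.096. Shared regulation was not tested. The genes most like Spry4 were Siglec1 (0.994), a sialic acid-binding receptor known from macrophages, Sbsn (0.990) and Lcp1 (0.990), a leukocyte actin-bundling protein gene. Siglec1 read 7.24, 9.17 and 8.23 with diluent and 6.96, 8.16 and 8.48 with MEKi, so that the order of the 6 arrays was the same as for Spry4.

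Markers of other cell types were read beside this. Of 9 leukocyte markers measured, 2 (Cd68 and Lyz2) had a mean at or above the median of all probe sets. Ptprc, which encodes the leukocyte common antigen CD45, read between 4.71 and 5.06 on the 6 arrays. The mean level of the 9 markers ran from 5.89 to 6.25 in diluent cultures and from 5.999 to 6.12 in MEKi cultures. Cd68 read 10.62, 9.10 and 11.41 with diluent and 9.69, 8.96 and 10.67 with MEKi (log2 fold change −0.61, adjusted p = 0.249 from limma), so that its lowest diluent culture was that in which Spry4 was highest. Lyz2 stood at 0.42 in log2 fold change (adjusted p = 0.19 from limma). Of 8 endothelial markers none reached the median of all probe sets, and their mean ran from 5.05 to 5.11 with diluent and from 5.06 to 5.22 with MEKi. Of 10 stromal markers 9 were at or above it, with means of 10.55 to 10.80 and 10.55 to 10.82, and Vcam1 had the largest value among them (−0.57, adjusted p = 0.0942 from limma). None of the markers passed. At an unadjusted p of at most 0.05, 1 leukocyte marker was lower and 1 higher, 1 stromal marker was lower and 2 higher, and 0 endothelial markers were either. Of all probe sets, 2.31% were lower and 7.58% higher at this p. The part of the markers in the values of Spry4 and the other members was not tested.

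The other feedback inhibitors of ERK signalling were read from a list of 12 genes, most of them phosphatases of the Dusp family. None passed in limma, 7 were lower and 0 higher in all 3 experiments, and 4 were lower at an unadjusted p of at most 0.05. Of all probe sets, 7.98% were lower and 23.8% higher in all 3 experiments, and 2.31% were lower at this p. Dusp6, a cytoplasmic phosphatase of ERK, read 7.18, 7.81 and 7.32 with diluent and 6.44, 7.17 and 6.99 with MEKi (log2 fold change −0.57, adjusted p = 0.137 from limma). Dusp4, a nuclear phosphatase, stood at −0.42 (adjusted p = 0.204 from limma), close in size to Spred2. Its diluent cultures also spread widely, with values of 7.22, 8.44 and 8.68, and it correlated by 0.909 with Spry4 over the 6 arrays. Its correlations with the 7 member probe sets ran from 0.185 for Spry1 to this value. Dok1, an adaptor, and Lrig1, which promotes the degradation of receptors, had values of −0.31 and −0.27 (adjusted p = 0.469 and 0.428 from limma). The median of the list was −0.13, and −0.34, −0.090 and −0.14 in experiments 1, 2 and 3.

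Of 8 genes used elsewhere as a readout of ERK activity, without the Sprouty genes, 1 fell, none rose and 7 did not pass. Ccnd1, which encodes cyclin D1, fell by 1.32 on the log2 scale (adjusted p = 0.03 from limma) and was lower in all 3 experiments. Etv5, an ETS transcription factor gene, read 7.68, 7.45 and 7.69 with diluent and 7.07, 7.14 and 7.39 with MEKi (−0.41, adjusted p = 0.208 from limma), and it correlated by 0.968 with the second Spred2 probe set. Over the 7 member probe sets its correlations ran from −0.36 for Spry1 to this value. The median of the list, which shares Dusp4 and Dusp6 with the feedback inhibitors, was −0.32. Among them 5 were lower and 0 higher at an unadjusted p of at most 0.05, against 2.31% and 7.58% of all probe sets. In all 3 experiments 5 were lower and 1 was higher, against 7.98% and 23.8% of all probe sets. The call of Ccnd1 was lost without the experiment as a block, when it was a random block, when arrays were centred on their medians, without experiment 2 and in an ordinary analysis of variance.

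**Figure D3:**
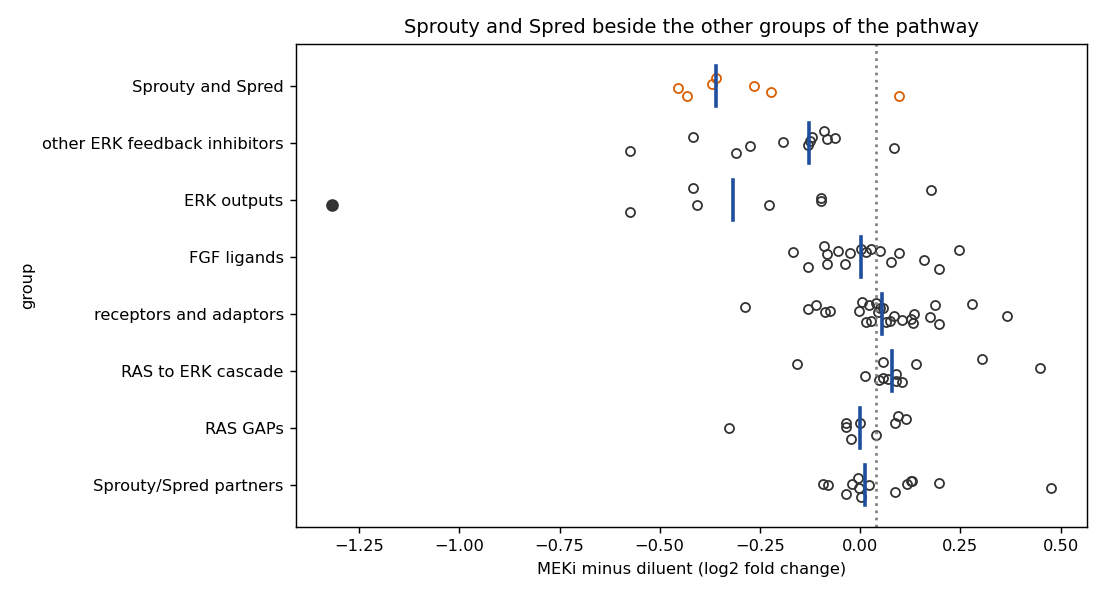
Log2 difference of MEKi from diluent (x axis) for the Sprouty and Spred probe sets (orange) and the genes of the other groups of the pathway (black; y axis); filled points passed an adjusted p of 0.05 in limma, blue bars are group medians and the dotted line is the median of all named genes, 0.039. The medians of the Sprouty and Spred genes (−0.36), the ERK outputs (−0.32) the other feedback inhibitors (−0.13), the RAS GTPase-activating proteins (−0.001), the FGF ligands (0.001) and the binding partners (0.012) lie left of this line, and those of the cascade itself (0.079) and its receptors and adaptors (0.054) right of it.

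The ligands, receptors and kinases upstream of ERK were read from further lists. Of all probe sets, 7.58% were higher and 2.31% lower at the unadjusted p, and 23.8% higher and 7.98% lower in all 3 experiments. The lists take 1 probe set per gene. Of 19938 named genes taken likewise, 1566 were higher and 460 lower at this p, and 5031 higher and 1479 lower in all 3 experiments. Of 17 FGF ligand genes none passed (median 0.001; 1 higher and 0 lower at an unadjusted p of at most 0.05; 4 lower and 2 higher in all 3 experiments), Fgf7, a mitogen made by mesenchymal cells, standing at 0.25 (adjusted p = 0.368 from limma). The median of the FGF ligands was −0.043 after quantile normalization and −0.031 after array centring. Only 5 of these 17 genes had a mean level at or above the median of all probe sets. Of 26 receptor and adaptor genes measured none passed (median 0.054; 3 higher and 1 lower at an unadjusted p of at most 0.05; 11 higher and 1 lower in all 3 experiments), with Fgfr2, a receptor of FGF ligands, at 0.37 (adjusted p = 0.242) and Gab2, an adaptor, at −0.29 (adjusted p = 0.466). Of 12 genes of the RAS to ERK cascade none passed either (median 0.079; 2 higher and 0 lower at an unadjusted p of at most 0.05; 7 higher and 0 lower in all 3 experiments), and Rras2, a RAS-related GTPase gene, was higher by 0.45 with groups that did not overlap (adjusted p = 0.131 from limma).

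Genes whose products bind or regulate Sprouty and Spred proteins were compared likewise, beside the same shares of all probe sets. Of 14 measured none passed (median 0.012; 2 higher and 0 lower at an unadjusted p of at most 0.05; 6 higher and 0 lower in all 3 experiments). Their median was −0.041 after quantile normalization and −0.020 after array centring. Cav1, which encodes caveolin-1, had the largest value at 0.48, with differences of 0.42, 0.088 and 0.92 (adjusted p = 0.365 from limma). Nf1, whose product is the partner of the Spred proteins, had a value of −0.034 and Grb2 one of 0.022, while Cbl was at 0.13 (adjusted p = 0.932, 0.957 and 0.614). Of 9 RAS GTPase-activating protein genes, which include Nf1, none passed (median −0.001; 1 lower and 0 higher at an unadjusted p of at most 0.05; 0 lower and 0 higher in all 3 experiments), and Rasa4 had the largest value, −0.33 (adjusted p = 0.413 from limma).

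The direction of the members was also followed through 12 other fits. The log2 fold changes of Spred1, Spred2, Spred3, Spry2 and Spry4 were negative in all of them, and none passed in any. The fitted value is the same by design without a block, with a random block, and among brighter or singly named probe sets. It is also the same with the trend and robust prior and in the analysis of variance, so the direction could not differ there. The lowest adjusted p was 0.0723, for the second Spred2 probe set with an intensity trend and robust prior. Across the experiments left out in turn, the log2 fold change ran from −0.52 to −0.40 for that probe set, from −0.50 to −0.30 for the first, from −0.49 to −0.29 for Spred1, from −0.31 to −0.19 for Spred3 and from −0.29 to −0.16 for Spry2. The range of Spry4 was wider, from −0.62 to −0.085. At an unadjusted p of at most 0.05, 4 or 5 probe sets were lower in 11 of the 12 fits and 1 in an ordinary analysis of variance.

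**Figure D4:**
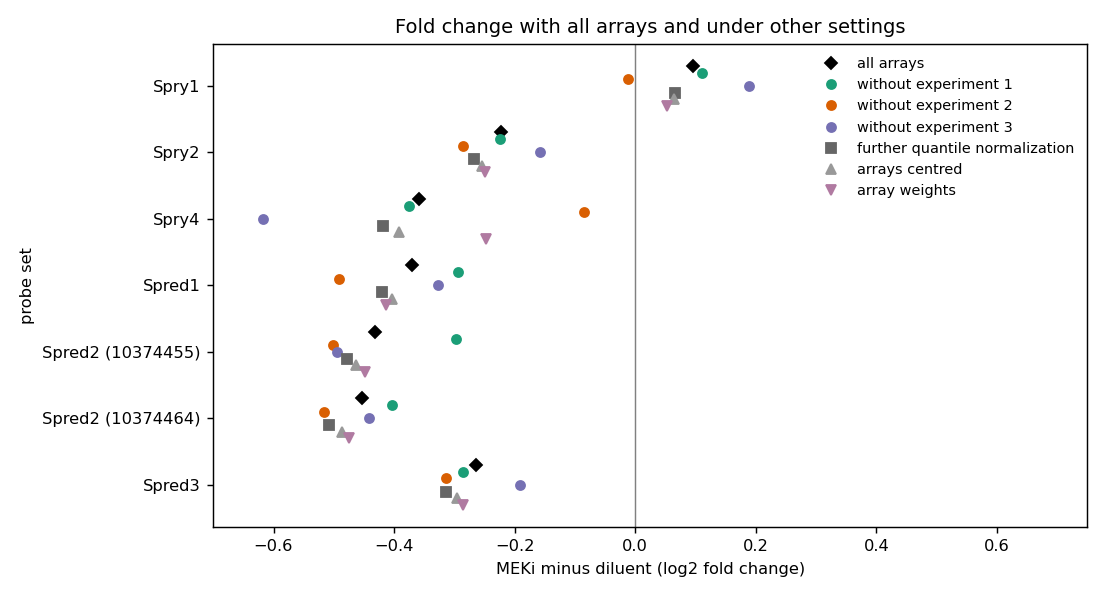
Log2 fold change of MEKi against diluent (x axis) of each Sprouty and Spred probe set (y axis) with all arrays (black diamonds), without each experiment in turn (coloured circles) and under 3 other settings (grey and mauve). The points of the 5 genes other than Spry1 stay left of 0, and those of Spry4 spread furthest, from −0.62 without experiment 3 to −0.085 without experiment 2.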

How the data were processed

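Total RNA of 6 MS5 cultures was hybridised to mouse Gene 1.0 ST arrays. The authors normalized raw intensities with RMA, did quality controls and statistics in Partek (versions not given in the sources used here), and deposited log2 values of 28853 probe sets. No filter or further normalization was applied, and 0 array columns were left out. Values ran from 2.25 to 14.07, and array medians from 6.29 to 6.38.

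Of the probe sets, 21789 name 1 gene, 1621 several and 5443 none. Gene lists used the probe set with the highest mean per gene. Some listed genes are not reported here.

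The treatments were compared by limma 3.58.1 under R 4.3.3 (lmFit, eBayes; 2 residual and 5.17 prior degrees of freedom), with the experiment as a block. The experiment numbers pair the arrays: the study describes 3 independent experiments, and deviations from group means correlated by 0.81, 0.59 and 0.62 within experiments and by −0.605 to 0.21 between them. Such deviations cancel out within a group, so negative correlations between experiments follow in part from positive ones within them. The Benjamini-Hochberg correction covered the whole array. The fit was tested on simulated data. The number of arrays limits the precision. The members and lists were chosen with earlier results of these data known. The named genes are the 6 members, Spry3, up to 4 genes per list by size of change with all that passed, and the 3 genes most like each member; Nf1 and Grb2 are outside this rule and were chosen after their values were seen. Promoters came from RefSeq. Alternatives were no replicate block, a random block, quantile normalization, array centring, brighter or singly named probe sets, array weights, a robust prior with intensity trend, each experiment left out, an ordinary analysis of variance and other thresholds. Figures used matplotlib 3.10.9.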

Additional observations from a re-analysis of the deposited data

How the results depend on the processing

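The count of 0 Sprouty and Spred probe sets past the threshold was the same under all 14 alternatives, and 82 of 83 values of single probe sets kept their direction and their side of the threshold. The exception was Spry1 (0.096), at −0.013 without experiment 2 and between −0.013 and 0.19 over the experiments left out in turn. The 83 values include the fits named above whose fitted value is the same by design. In those only the side of the threshold could change. Spry1 has no value among brighter probe sets, since its mean is under their limit. Counting members at an unadjusted p of at most 0.05 in each fit was chosen after seeing the data. The count was 5, 4 without the replicate block and 1 in the ordinary analysis of variance. Over all 28853 probe sets, those at this p in either direction numbered 2853, 907 and 2195 in these fits. The cause of these differences was not tested.

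Over all probe sets, the 46 that passed became 0 without the replicate block (907 at an unadjusted p of at most 0.05), 0 with a random block (2321), 0 after array centring (2780) and 0 in the analysis of variance (2195). They became 15 after quantile normalization, 25 among brighter probe sets, 115 with an intensity trend and a robust prior together, 77 at an adjusted p under 0.10 and 155 at an unadjusted p of at most 0.05 with 1.5-fold. Without 1 experiment they were 0 to 37. The 30 higher and 16 lower became 4 and 11 after quantile normalization. The ERK outputs went from 1 to 0 after centring, in the analysis of variance, with a random block and without the replicate block, and 0 to 1 without 1 experiment. The cascade had 1 gene past the threshold with the trend and robust prior. The stromal markers had 1 among singly named probe sets, with the trend and robust prior and at an adjusted p under 0.10, and the leukocyte markers 1 at an unadjusted p with 1.5-fold. The median of the endothelial markers (0.069) was 0.033 after quantile normalization and 0.037 after centring. The other 117 list medians moved by less than the SD of the medians of the 3 experiments, and the other 130 list counts stayed within 1.5 times. Some of these medians could not move, since the fitted values are the same by design in some fits. These were the fits without a block, with a random block, with the trend and robust prior, and among singly named probe sets.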
